A study of Mus musculus with 9 samples.

Results

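The enzymes of heme synthesis were followed in B.END3 cells after photodynamic therapy (PDT). The members were taken by gene symbol, as the rows of the deposited expression table named Alas1, Alad, Uros, Urod, Cpox, Ppox or Fech. This gave 7 genes of the 54532 listed. The rule itself used no expression value, but the members were chosen with earlier results of these data known. B.END3 is a mouse brain endothelial cell line, here labelled as of C57BL/6 origin, and whole-culture RNA was sequenced. The study asked how brain endothelial cells respond to PDT, in which light of a chosen wavelength excites a photosensitizer and oxygen is turned into reactive species.

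There were 3 groups of 3 libraries each. Ctrl cells are labelled untreated. Ep1 cells were incubated with 300 ug/mL porfimer sodium for 90 min and then exposed to 635 nm light at 100 mW/cm2, to a dose of 10 J/cm2. Ep2 cells had the same photosensitizer, incubation time, wavelength and irradiance, with a light dose of 20 J/cm2. No group with photosensitizer alone or light alone was sequenced among the libraries used here, so the contributions of drug and light to a difference from Ctrl cannot be told apart. The time between light and lysis is not given in the sources used here. Nothing says that the 3 libraries of a group came from separate cultures, so the p-values measure the spread between these libraries, which may be technical. Because the RNA came from whole-culture lysates, fewer cells of a kind and less RNA per cell cannot be told apart.

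The unit throughout is FPKM, fragments scaled to gene length in kilobases and to library size. Fragments on genes summed to 18289776 to 19509225 in Ctrl, 16797492 to 18603707 in Ep1 and 16240688 to 18575984 in Ep2, and all 7 enzymes passed the filter of 1 FPKM in at least 3 libraries. Ep2 replicate 1 stood apart from the other Ep2 libraries. Its fragment counts gave chi-square values of 10.1 and 15.3 for each degree of freedom against theirs, where the other pairs of libraries within a group gave 2.81 to 5.66. Where leaving it out changed a call on an enzyme or moved a called value by over 1.5 times, the value without it is also given. Of 10 endothelial marker genes only Flt1 passed the filter. Pecam1 averaged 0.143 FPKM and Cdh5 0.857 FPKM in Ctrl, and Erg and Emcn were at 0 in all libraries. The epithelial keratin genes Krt8 and Krt18 averaged 640 and 237 FPKM in Ctrl. The other epithelial genes listed, Epcam and Cdh1, were low, at 0.812 and 0.0338 FPKM in Ctrl. The labelled endothelial identity was thus not borne out by most of its defining markers, and the cells are called B.END3 below. Summed endothelial markers were 7.88 to 8.28 FPKM in Ctrl, and 8.31 to 9.41 FPKM in Ep1 against 11.7 to 12.7 FPKM in Ep2. Summed epithelial markers were 859 to 902, 798 to 860 and 900.1 to 1049 FPKM. Both sums were higher in Ep2 than in Ep1, and their part in the results on the enzymes was not tested. The endothelial sum was mostly Flt1, which averaged 7.25 FPKM in Ep1 and 10.9 FPKM in Ep2. The other endothelial genes were low and went in both directions or stayed at 0, with Cdh5 at 0.979 FPKM in Ep1 and 0.753 FPKM in Ep2. The epithelial sum was nearly all Krt8 and Krt18. The summed markers of astrocytes, of microglia and leukocytes and of neurons stayed at or below 1.43 FPKM in every library, and those of pericytes and smooth muscle at 2.59 to 4.13 FPKM.

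Heme is built along a single chain of enzymes that begins and ends in mitochondria and passes through the cytosol between. The first enzyme, encoded by Alas1 outside red blood cells, is the rate-limiting step and is held down by heme itself, while the last, encoded by Fech, inserts iron into protoporphyrin. Protoporphyrin and other porphyrins of the chain absorb light and sensitize cells to it, and the drug used here, porfimer sodium, is itself a porphyrin preparation.

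Alas1 encodes aminolevulinate synthase, which joins glycine to succinyl-CoA in the mitochondrial matrix. Alas1 RNA fell to 31.5% of the Ctrl mean in Ep1 and stood at 59.2% of it in Ep2, so that the lower light dose had the lower level. The gene (ENSMUSG00000032786) lies on the minus strand at chr9:106233455-106248654 in the coordinates of the table, which are those of the mouse build GRCm38. RefSeq places a pair of start sites for Alas1 inside that span on GRCm38.p6, and the 250 bases before each were searched on both strands for 5 motifs. The stretches that held a match are shown because nuclear respiratory factor 1 and EGR1 bind such motifs. The RNA of both factors was measured in the same libraries, but their protein was not. The capitals mark the motif, the EGR1 letters GCGNGGGCG in the first stretch and the NRF-1 letters GCGCANGCG (or their reverse complement) in the others, and each stretch is written on the strand of its gene with 10 flanking bases on either side.

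Alas1 EGR1 match, chr9:106248139-106248167: acgacctacaGCGGGGGCGcaggagtctg
Alas1 NRF-1 match, chr9:106247935-106247963: cttcggcgcgCGCGTGCGCgcggcaggcc
Alas1 NRF-1 match, chr9:106247906-106247935: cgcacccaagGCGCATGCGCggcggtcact
Uros NRF-1 match, chr7:133709323-133709351: ggtcacactgCGCCTGCGCgagtcccgcc

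The NRF-1 letters occurred in 5.16% and the EGR1 letters in 4.70% of 32851 mouse promoter windows of the same 250 bases. These shares were not matched for content of G and C bases, although both motifs are mostly G and C. The Alas1 window with the EGR1 match had 62.4% G and C, more than 77.5% of windows. That with the NRF-1 matches had 74.4%, more than 95.4% of windows, and the Uros window with a match had 59.6%, more than 71.1%. The last Alas1 stretch is a palindrome that matched on both strands, with overlapping matches. The windows of 6 of the 7 enzymes were searched, 9 windows in all, and the Uros stretch above was the only other match to either motif. No window of Alas1, Alad, Uros, Urod, Cpox or Ppox held the cyclic AMP element TGACGTCA (in 1.55% of all windows), the AP-1 letters TGANTCA (6.75%) or the antioxidant element TGACNNNGC (10.2%). A match describes letters in the sequence and was not tied to binding.

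Alas1 was at 9.69, 9.70 and 10.2 FPKM in Ctrl. It was at 3.15, 2.99 and 3.17 FPKM in Ep1. The Ep2 values were 7.21, 4.85 and 5.45 FPKM. The 3 groups did not overlap: all Ep1 libraries were lowest, all Ctrl libraries highest, and the Ep2 libraries lay between, with replicate 1 the highest of them. These values rested on 310 to 1172 fragments per library.

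The Ctrl mean was 9.86 ± 0.272 FPKM, that of Ep1 3.10 ± 0.0954 and that of Ep2 5.84 ± 1.22 (SD, n = 3). Fold changes were fitted on log2(FPKM + 1), a scale that understates changes of low genes, with one limma model over all tested genes. On that scale Alas1 fell by 1.40 in Ep1 (SE 0.105, limma adjusted p = 0.00121). The 95% confidence interval was -1.64 to -1.17, and only 5 of 11727 tested genes had a lower fold change. In Ep2 the fall was 0.68 (log2 difference -0.68, adjusted p = 0.000526). The direct comparison of the doses put Ep2 above Ep1 by 0.72 (adjusted p = 0.000561). Without Ep2 replicate 1 the Ep2 mean was 52.3% of Ctrl, and the differences were -0.82 from Ctrl and 0.58 from Ep1, both still called.

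**Figure D1:**
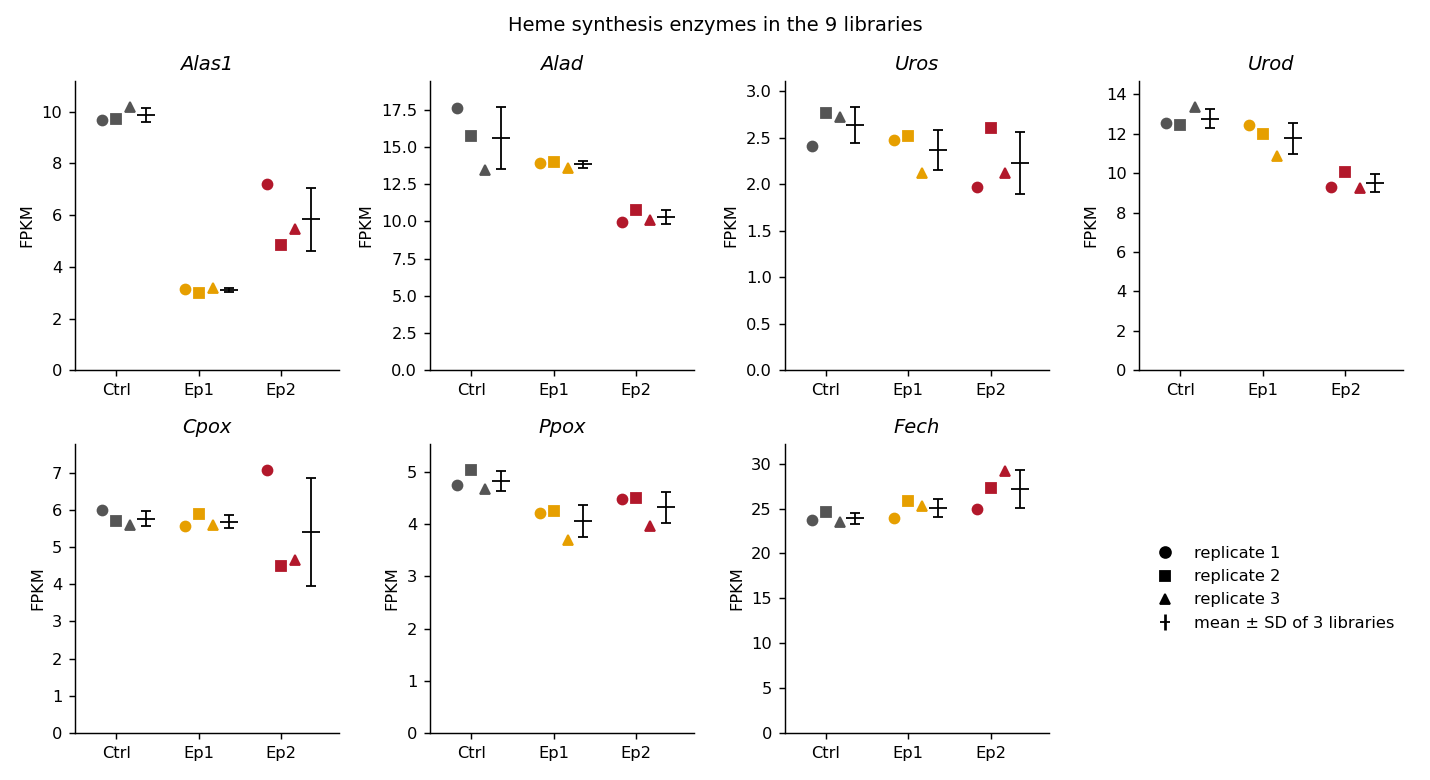
Expression of the 7 heme synthesis enzymes in FPKM, 1 panel per gene with its own axis from 0, in Ctrl, Ep1 (10 J/cm2) and Ep2 (20 J/cm2). Circles, squares and triangles are replicates 1, 2 and 3, and bars give the mean ± SD of 3 libraries; Alas1 is lowest in Ep1, Alad and Urod are lowest in Ep2, and Cpox has 1 high Ep2 library.

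The cytosolic enzymes come next. Alad encodes the dehydratase that condenses aminolevulinate into a pyrrole, Uros encodes the synthase that closes the tetrapyrrole ring, and Urod encodes the decarboxylase that acts on that ring. Of these, Alad and Urod were lower in Ep2 than in both other groups, and none of them differed between Ep1 and Ctrl beyond the test's threshold.

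Alad (ENSMUSG00000028393, chr4:62509169-62519918, minus strand) was at 17.6, 15.7 and 13.4 FPKM in Ctrl. In Ep1 it was at 14.0, 14.0 and 13.6 FPKM. In Ep2 it was at 9.95, 10.8 and 10.1 FPKM. All Ep2 libraries lay below all others, whereas the Ep1 libraries fell within the range of Ctrl, which itself was wide for this gene (15.6 ± 2.08 FPKM). The Ep2 mean was 66.0% of Ctrl, a difference of -0.55 on the log2 scale (SE 0.0813, adjusted p = 0.000421). Against Ep1 the difference was -0.39 (adjusted p = 0.00374). The Ep1 difference from Ctrl was -0.15 (95% interval -0.34 to 0.03, adjusted p = 0.242). Leaving out Ctrl replicate 3, the lowest Ctrl library, moved that difference to -0.25 with an adjusted p of 0.0441.

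Urod (ENSMUSG00000028684, chr4:116989965-116994413, minus strand) was at 12.5, 12.4 and 13.3 FPKM in Ctrl. In Ep1 it was at 12.4, 12.0 and 10.9 FPKM. The Ep2 values were 9.29, 10.05 and 9.23 FPKM. The Ep2 libraries again lay below all others, at 74.5% of the Ctrl mean, and the Ep1 libraries lay just under Ctrl, separated by less than the spread within either group. The Ep2 difference from Ctrl was -0.39 (SE 0.0585, adjusted p = 0.000456) and from Ep1 -0.28 (adjusted p = 0.00421). The Ep1 difference from Ctrl was -0.11 (95% interval -0.24 to 0.02, adjusted p = 0.239). The calls on Alad and Urod in both comparisons of Ep2 held in every one of the 15 alternatives run for each.

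Uros (ENSMUSG00000030979, chr7:133686243-133710072, minus strand) was the least abundant enzyme, with 126 to 193 fragments per library. It was at 2.41, 2.76 and 2.73 FPKM in Ctrl. It was at 2.47, 2.52 and 2.12 FPKM in Ep1. It was at 1.97, 2.60 and 2.12 FPKM in Ep2. The groups overlapped. Differences from Ctrl were -0.11 in Ep1 (95% interval -0.31 to 0.09) and -0.17 in Ep2 (-0.37 to 0.03), with adjusted p of 0.449 and 0.128. Leaving out Ep2 replicate 2, the highest Ep2 library, moved the Ep2 difference to -0.25 with an adjusted p of 0.0354. Uros shares 740 bases with Bccip on the opposite strand, a gene at 18.5 to 29.2 FPKM whose level was lower in Ep2 (log2 difference -0.57, adjusted p = 5.85e-05). Whether counting used strand is not given in the sources used here, so reads of the shared stretch could not be assigned with certainty.

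The last steps return to mitochondria. Cpox encodes coproporphyrinogen oxidase of the intermembrane space, Ppox encodes protoporphyrinogen oxidase of the inner membrane, and Fech encodes ferrochelatase on the matrix side. None of these fell in either dose by the main test, and Fech was slightly higher in Ep2.

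Cpox (ENSMUSG00000022742, chr16:58670292-58717636, plus strand) was at 5.99, 5.71 and 5.60 FPKM in Ctrl. In Ep1 it was at 5.58, 5.88 and 5.59 FPKM. The Ep2 libraries gave 7.07, 4.50 and 4.65 FPKM. Ctrl and Ep1 overlapped and were close, while Ep2 was split, with replicate 1 above and the other libraries below every Ctrl and Ep1 value. The coefficient of variation was 26.7% in Ep2. The Ep2 difference from Ctrl was -0.10 (95% interval -0.39 to 0.18, adjusted p = 0.526). Without Ep2 replicate 1 it was -0.28 with an adjusted p of 0.00182. Between the doses the difference was -0.08 (adjusted p = 0.627), and without that library it was -0.26 (adjusted p = 0.00359). The Ep1 difference was -0.02 (-0.30 to 0.27, adjusted p = 0.939) and took the opposite sign, at 0.01, without Ctrl replicate 1.

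Ppox (ENSMUSG00000062729, chr1:171275990-171281186, minus strand) was at 4.76, 5.04 and 4.68 FPKM in Ctrl. In Ep1 it was at 4.22, 4.25 and 3.70 FPKM. In Ep2 it was at 4.49, 4.51 and 3.97 FPKM. All treated libraries lay under all Ctrl libraries, by a small margin. The Ep1 difference was -0.20 (95% interval -0.35 to -0.06, adjusted p = 0.0742), and the Ep2 difference was -0.13 (-0.28 to 0.02, adjusted p = 0.124), so neither passed the threshold after adjustment. A fit on fragment counts gave -0.27 for Ep1 with an adjusted p of 0.0493. Ppox shares 907 bases with B4galt3 on the opposite strand, which was at 2.15 to 3.21 FPKM and differed by -0.21 in Ep1 (adjusted p = 0.1155), so reads of the shared stretch were again uncertain.

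Fech (ENSMUSG00000024588, chr18:64456550-64489066, minus strand) was the most abundant enzyme per kilobase of listed length, with 1259 to 1484 fragments. It was at 23.7, 24.6 and 23.5 FPKM in Ctrl. It was at 24.0, 25.9 and 25.3 FPKM in Ep1. It was at 25.0, 27.3 and 29.2 FPKM in Ep2. All Ep2 libraries were above all Ctrl libraries, and Ep1 overlapped with both. The Ep2 mean was 113.7% of Ctrl, a log2 difference of 0.18 (SE 0.0579, adjusted p = 0.0278). This was the least firm of the calls: it was lost in 6 of 15 alternatives, with adjusted p of up to 0.0877 without Ep2 replicate 3. The Ep1 difference was 0.06 (adjusted p = 0.491) and that between the doses 0.11 (adjusted p = 0.148). The difference between the doses was called in 3 of 15 alternatives, at 0.17 without Ep2 replicate 1 (adjusted p = 0.0212), 0.17 after median centring (0.040) and 0.14 under a length and GC correction (0.047).

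Counted together, Alas1 was the only one of the 7 enzymes called in Ep1, as lower, where 4.97% of all tested genes were called lower and 6.32% higher. It also passed the fold threshold that the study used for its DEGs, an absolute log2 fold change above 0.6, which 0.222% of tested genes passed downward. The threshold was applied here to differences in log2(FPKM + 1), so the genes past it need not be the study's DEGs. Those past it with an adjusted p under 0.05 were 26 lower and 67 higher in Ep1, and 688 and 387 in Ep2. In Ep2, 4 of 7 were called, of which Alas1, Alad and Urod were lower against a background of 29.3% of genes lower, and Fech was higher against 23.9% higher. Alas1 alone of the 7 passed the fold threshold in Ep2, as did 5.87% of tested genes downward. That depended on single libraries: without Ep2 replicate 2 Alas1 was at -0.58, short of the threshold, and without Ctrl replicate 3 Alad passed it as well, at -0.64. Between the doses 3 of 7 were called, of which Alad and Urod were lower in Ep2 (25.2% of genes) and Alas1 was higher (18.8%). Alas1 passed the fold threshold there too, but not without Ep2 replicate 1, at 0.58. Neither Alad nor Urod passed a log2 fold change of -0.6 there, which 3.97% of genes did. With so many genes called in Ep2, the count of 3 lower enzymes in 7 is a description of those genes and sets the chain apart from no other group. The median log2 difference over all tested genes was -0.01 in Ep1 and -0.03 in Ep2.

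**Figure D2:**
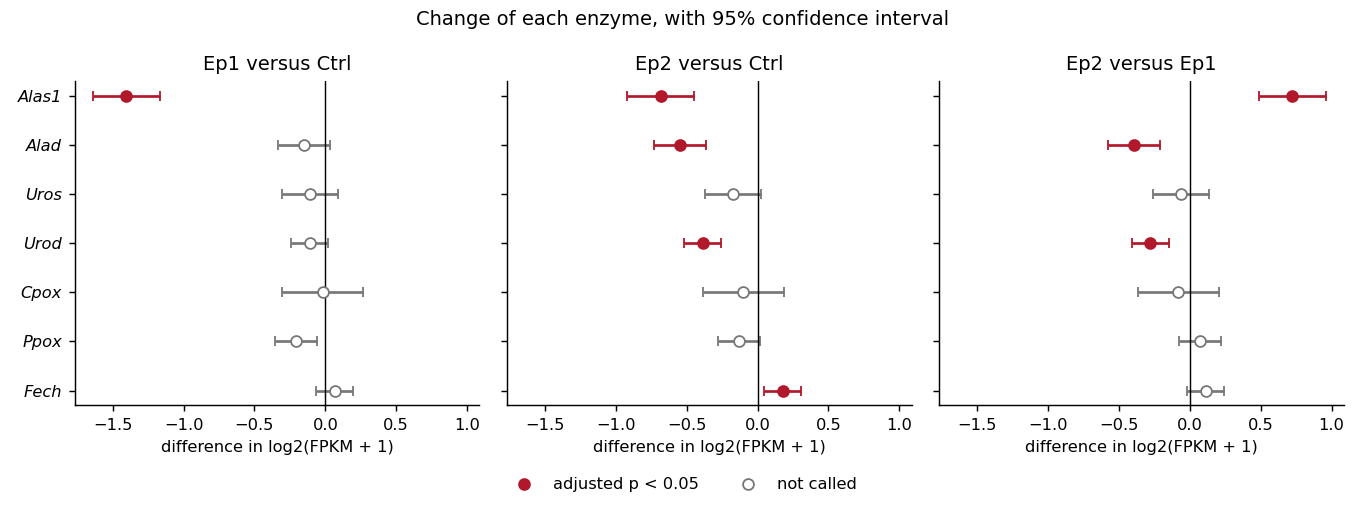
Difference in log2(FPKM + 1) for each enzyme with its 95% confidence interval from limma (horizontal axis), in the 3 comparisons, genes in pathway order. Filled points have an adjusted p under 0.05; Alas1 is at -1.40 in Ep1 and -0.68 in Ep2, while the later enzymes lie between -0.20 and 0.06 in Ep1.

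The order of the enzymes by FPKM was Fech, Alad, Urod, Alas1, Cpox, Ppox and Uros in Ctrl, and no neighbours in that order overlapped. In Ep1, Alas1 moved below Cpox and Ppox to the sixth place, again with no overlap between neighbours. In Ep2 it stood back between Urod and Cpox, and the ranges of Alad and Urod, of Alas1 and Cpox, and of Cpox and Ppox overlapped. The summed FPKM of the 7 enzymes was 73.4 to 76.7 in Ctrl, 64.3 to 67.5 in Ep1 and 64.6 to 65.0 in Ep2, so both treated groups lay below Ctrl in the sum. Alas1 made up 13.1 ± 0.662% of this sum in Ctrl, 4.71 ± 0.250% at the lower dose and 9.0 ± 1.86% at the higher, where the mean without Ep2 replicate 1 was 7.96%. The share of Fech was 31.7 ± 0.757%, 38.1 ± 1.45% and 42.0 ± 3.34%.

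The order depended on the gene length used. The listed length, whose construction is not given in the sources used here, is longer than the canonical GENCODE transcript for Alas1 (6174 against 3414 bases) and shorter for Fech (2901 against 6477). Per kilobase of the canonical transcript, a choice made after seeing the data, Alas1 was the highest of the 7 in Ctrl at 17.8 ± 0.493 FPKM, the sixth in Ep1 at 5.61 ± 0.173 and the third in Ep2 at 10.6 ± 2.21. Fech was then the third in Ctrl at 10.7 ± 0.265 FPKM, and Uros stayed last in all 3 groups. Ratios of FPKM between groups for 1 gene do not depend on this choice, although differences in log2(FPKM + 1) do.

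**Figure D3:**
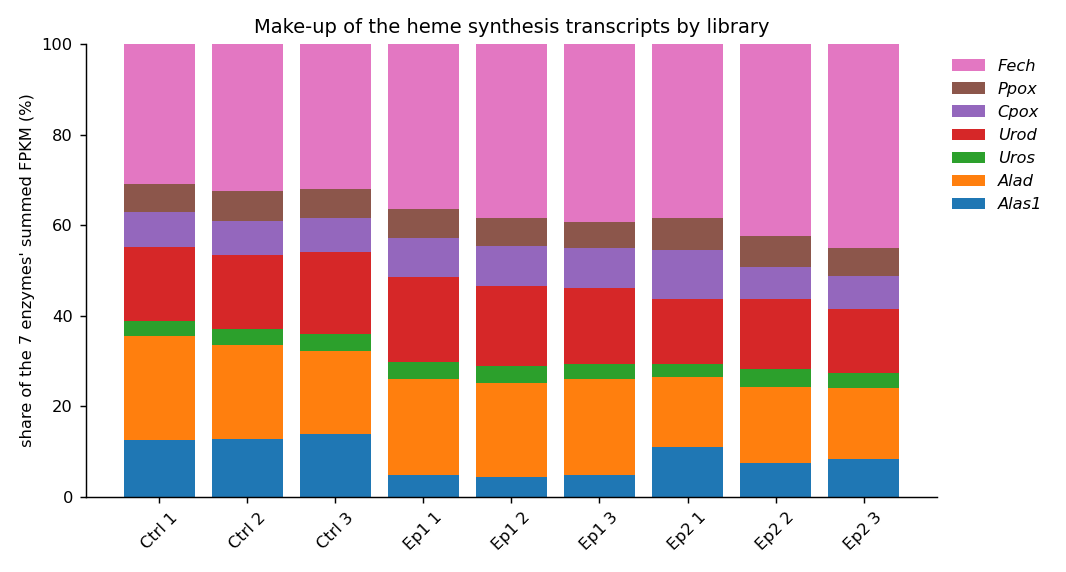
Share of each enzyme in the summed FPKM of the 7 enzymes (vertical axis, %), 1 bar per library. The mean Alas1 share is 13.1% in Ctrl, 4.71% at the lower dose and 9.0% at the higher, and the mean Fech share is 31.7% in Ctrl and 42.0% in Ep2.

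Among themselves the enzymes did not move as 1 block. Over the 9 libraries, Pearson's r of log2(FPKM + 1) was 0.86 between Alad and Urod, 0.78 between Alas1 and Ppox, and 0.20 between Alas1 and Alad. Fech was negatively related to each of the other 6, down to -0.78 with Urod. These are descriptions over 9 libraries that share 3 conditions. The genes whose pattern was most like that of Alas1, of 3928 with a range of at least 0.6, were Snx33 (r = 0.99), AC149090.1 (0.96), Sall2 (0.95), Fam102a (0.94) and Gm8129 (0.92). Snx33, which encodes a sorting nexin, was at 9.71, 9.04 and 9.19 FPKM in Ctrl. It was at 5.59, 5.57 and 5.66 FPKM in Ep1. It was at 8.09, 6.90 and 6.90 FPKM in Ep2. Its libraries thus fell in the same 3 separate tiers as those of Alas1, with Ep2 replicate 1 again highest in its group. Its log2 difference was -0.64 in Ep1 and -0.32 in Ep2, smaller than that of Alas1 in both.

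The erythroid counterpart of Alas1 was near absent. Alas2, the synthase of red cell precursors, averaged 0.0800 FPKM in Ctrl, with 0.116 at the lower and 0.122 at the higher dose, on 0 to 10 fragments per library. None of the 6 erythroid genes examined passed the filter.

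Of 18 listed genes that act, directly or through other factors, in the control of Alas1 or of mitochondrial genes, 14 were tested. In Ep1, 4 were called higher and 1 lower, beside 6.32% and 4.97% of all tested genes. Across the alternatives 1 to 5 were called higher, with 1 left without Ep1 replicate 3, and 0 to 1 were called lower. Bach1, a heme-binding repressor, was higher by 0.47 (adjusted p = 0.00521). Nr1d2, a heme-binding nuclear receptor of the clock, was higher by 0.55 (adjusted p = 0.00989). Egr1, an immediate early factor, was higher by 0.89 (adjusted p = 0.0130), and Ppargc1b, a coactivator of mitochondrial genes, was lower by 0.36 (log2 difference -0.36, adjusted p = 0.0241). The Bach1 call held in all 15 alternatives, those on Nr1d2 and Egr1 were lost in 2 of 15 each, and that on Ppargc1b in 7 of 14.

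In Ep2, 5 of the 14 regulators were called higher and 4 lower, which is near the share among all tested genes, of which 53.2% were called in either direction, 23.9% higher and 29.3% lower. Bach1 was higher by 0.79 and Nr1d2 by 0.83. Ppargc1b fell by 0.56 and Nrf1, which encodes nuclear respiratory factor 1, fell by 0.36 (adjusted p = 0.000303 and 0.000603). Nrf1 was at 5.20, 5.21 and 4.92 FPKM in Ctrl. In Ep1 it was at 5.40, 5.80 and 5.16 FPKM. In Ep2 it was at 3.52, 3.87 and 3.85 FPKM. Nrf1 was thus low in Ep2 alone, where its level differed from Ep1 by -0.44 (adjusted p = 0.000302). Alas1 was lowest in Ep1, and a part of Nrf1 in the Alas1 levels was not tested.

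Egr1 was at 3.83, 5.03 and 4.25 FPKM in Ctrl. It was at 11.3, 7.13 and 8.72 FPKM in Ep1. It was at 5.80, 4.43 and 5.61 FPKM in Ep2. Its Ep1 libraries were above all others, and Ep2 overlapped Ctrl. The difference between the doses was -0.67 (adjusted p = 0.00822), in the direction opposite to that of Alas1. Bach1, by contrast, was higher in Ep2 than in Ep1 by 0.32 (adjusted p = 0.00128). The other 9 tested regulators in Ep1 and the other 5 in Ep2 were not called. Whether Egr1, Bach1 or any other listed regulator had a part in the Alas1 levels was not tested.

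**Figure D4:**
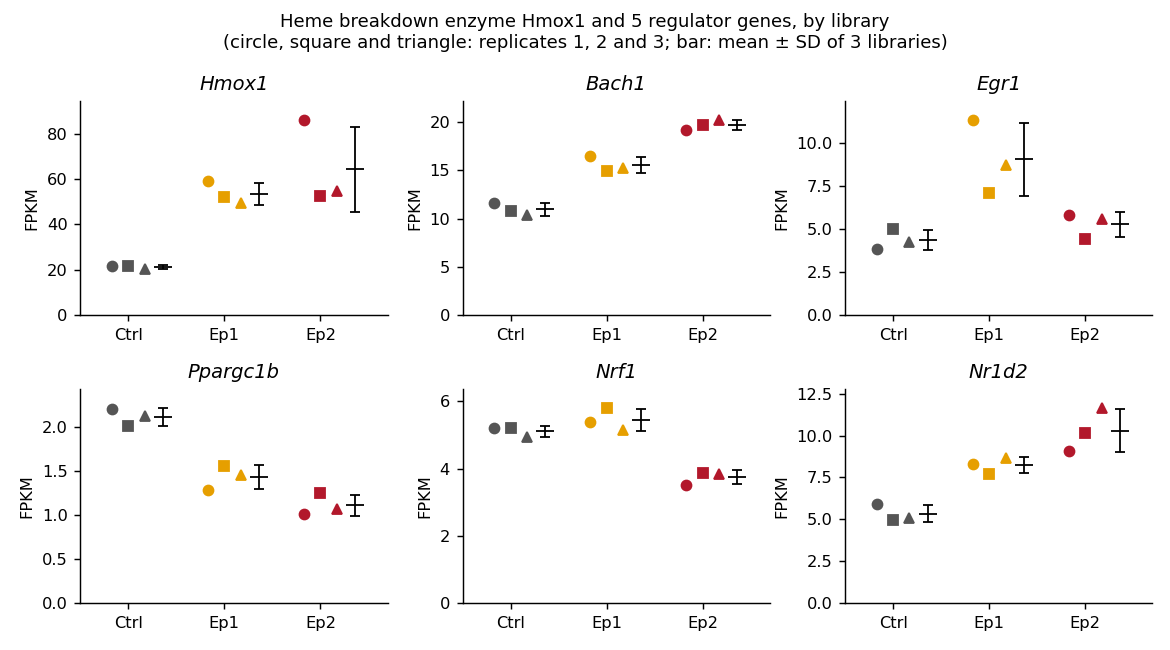
Expression in FPKM of Hmox1 and of 5 regulator genes, 1 panel per gene with its own axis from 0, by group. Symbols are libraries and bars the mean ± SD of 3 libraries; Egr1 is highest in Ep1, Nrf1 is lowest in Ep2, and Bach1 and Nr1d2 are highest in Ep2.

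Heme breakdown was represented by 4 tested genes, of which 1, Hmox1, was called in each comparison with Ctrl, as higher. Of all tested genes, 6.32% were called higher in Ep1 and 23.9% in Ep2, so the count in Ep2 is near the share of all genes. Hmox1 encodes heme oxygenase 1, which opens the heme ring and frees its iron. It was at 21.6, 21.8 and 20.4 FPKM in Ctrl. It was at 59.0, 51.9 and 49.4 FPKM in Ep1. It was at 86.0, 52.4 and 54.7 FPKM in Ep2. All treated libraries were above all Ctrl libraries, and the doses overlapped, with Ep2 replicate 1 the highest. The differences from Ctrl were 1.29 in Ep1 (adjusted p = 0.00823) and 1.52 in Ep2 (adjusted p = 0.00018), and the difference between doses was 0.23 (adjusted p = 0.309). Without Ep2 replicate 1 the Ep2 difference from Ctrl was 1.29, still called, and that between the doses 0.01 (adjusted p = 0.948). The constitutive oxygenase Hmox2 differed by -0.10 and -0.07, neither called. Between the doses Blvrb, a biliverdin reductase, was called, as higher in Ep2 by 0.30 (adjusted p = 0.0125), where 18.8% of all tested genes were called higher.

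Genes that bring substrates to the chain and carry its products were mostly lower in Ep2. Of 15 tested genes of transport and substrate supply, 10 were called lower and 1 higher in Ep2, with a median log2 difference of -0.33, where 29.3% of all tested genes were lower and their median was -0.03. Across the alternatives 8 to 10 were lower. Shmt2, which makes glycine in mitochondria, fell by 0.70 (adjusted p = 1.35e-05), from 88.3 ± 4.66 to 54.0 ± 2.55 FPKM. Suclg1 and Suclg2, subunits of succinyl-CoA synthetase, fell by 0.46 and 0.33, and the iron carrier Slc25a28 fell by 0.42. The exporter Abcg2, which moves porphyrins out of cells, was called higher by 0.21, a call lost in 8 of 15 alternatives. In Ep1, 1 of the 15, the outer membrane protein gene Tspo, was called, as lower by 0.24 (log2 difference -0.24, adjusted p = 0.0240), and the median was -0.02. The call on Tspo was lost in 7 of 15 alternatives. The share of all tested genes called lower in Ep1 was 4.97%. Between the doses 9 of 15 were lower in Ep2, where 25.2% of all tested genes were.

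Of 6 tested genes of ALAS protein turnover and heme chaperoning, Clpp, the protease subunit that acts with the ALAS-binding unfoldase, fell at both doses. The Ctrl libraries averaged 71.0 ± 1.01 FPKM for Clpp, those of Ep1 59.0 ± 2.93 and those of Ep2 40.1 ± 0.383. Its log2 differences were -0.26 (adjusted p = 0.00989) and -0.81 (adjusted p = 2.48e-06), and the Ep1 call was lost under the length and GC correction and without Ctrl replicate 2. Of the 6, 1 was called in Ep1, as lower, beside 4.97% of all tested genes. In Ep2, 2 were lower and 2 higher, beside 29.3% and 23.9% of all tested genes. In Ep2 the membrane heme-binding protein genes Pgrmc1 and Pgrmc2 were called in opposite directions, at 0.21 and -0.20, and Snx3 was higher by 0.15, a call lost in 5 of 15 alternatives. Without Ep2 replicate 1 the Snx3 difference was 0.097 (limma adjusted p = 0.0481). The order of doses for Clpp, with Ep2 lowest, was that of Alad and Urod and not that of Alas1.

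Of 14 tested genes of heme use, 2 were called in Ep1, both higher (6.32% of all tested genes), and 7 in Ep2, of which 5 were higher. The Ep2 count is close to the 53.2% of all tested genes called there. Cyc1 and Cycs, the cytochromes of the respiratory chain, fell by 0.56 and 0.49 in Ep2. Cat, which encodes the heme enzyme catalase, rose by 0.46 and Cyb5a, a cytochrome, by 0.30. In Ep1 the calls were Ptgs2, encoding the inducible cyclooxygenase, at 0.98 (adjusted p = 0.0322), and Hccs, which attaches heme to cytochrome c, at 0.20 (adjusted p = 0.0418). These calls were lost in 8 and 9 of 15 alternatives, respectively. The lists were chosen with earlier results of these data known, and their counts describe the genes named and no others.

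**Figure D5:**
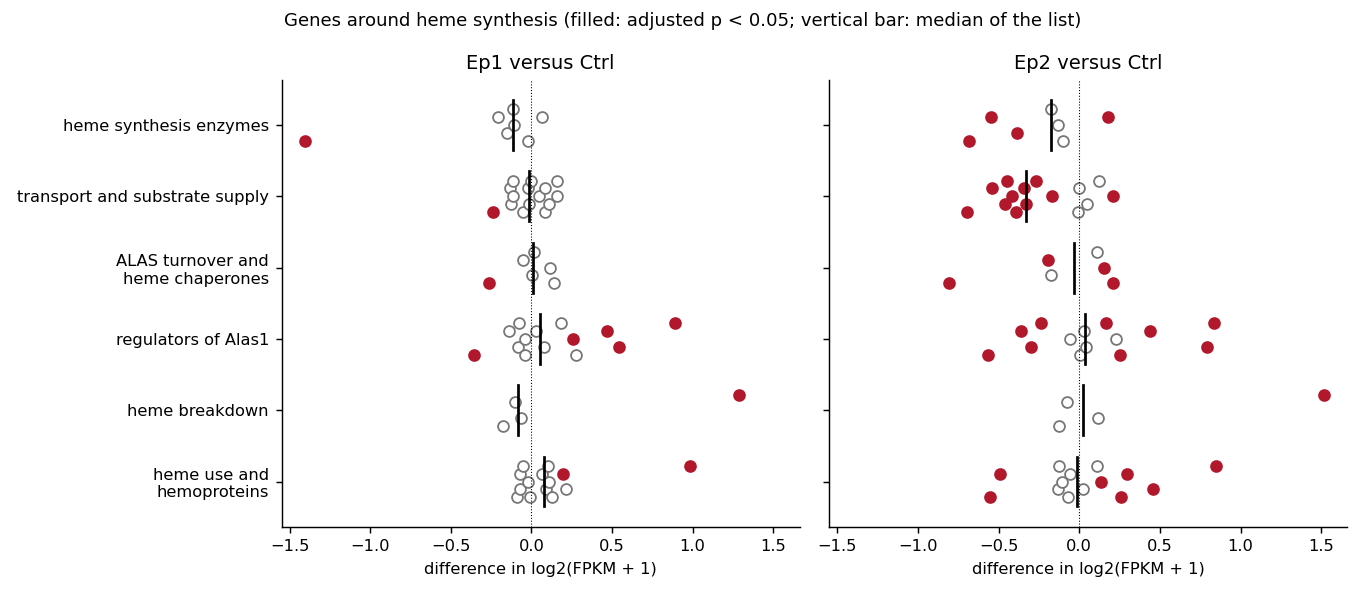
Difference in log2(FPKM + 1) from Ctrl (horizontal axis) for each tested gene of 6 lists around heme synthesis, Ep1 on the left and Ep2 on the right. Filled points have an adjusted p under 0.05 and vertical bars are list medians; the transport and supply median is -0.02 in Ep1 and -0.33 in Ep2.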

How the data were processed

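RNA from 9 libraries of B.END3 cells was sequenced as paired-end reads. The authors deposited FPKM values for each gene and library. The counting tool is not given in the sources used here. The methods name GRCm39 and the submitters' processing notes name mm8 and Bowtie 0.12.2, while the listed coordinates overlap GRCm38.p6 for 99.86% of 37624 genes and GRCm39 for 10.91% of 50453. The growth protocol calls the cells rat, whereas the organism label and the genes are mouse. FPKM multiplied by length, and divided by a scaling step fitted for each library, gave whole fragments (within 0.05) for 100% of values.

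From these files, log2(FPKM + 1) of the 11727 genes with at least 1 FPKM in at least 3 libraries was fitted with limma 3.58.1 in R 4.3.3 (1 coefficient per group, eBayes with trend and robust estimation, Benjamini-Hochberg adjustment over all tested genes, two-sided). A gene was called at an adjusted p under 0.05. The members, lists and tests were chosen with earlier results of these data known. All 7 enzymes, up to 4 called genes per list and comparison with the smallest adjusted p, Hmox1, Alas2, the 5 genes most like Alas1 and genes overlapping a member were eligible to be named. Abcg2 in Ep2, Hmox2, which was not called, and the cell type markers were named outside this rule. 1 further enzyme of the chain is not reported here. Promoter sequences came from RefSeq. The fit was tested on simulated data. Alternatives were another pseudocount, filters, median centring, fewer groups, a replicate block, voom on fragments, plain eBayes and leaving out each library. A length and GC correction was chosen after seeing the data. Analyses used Python 3.11.15.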

Additional observations from a re-analysis of the deposited data

How the results depend on the processing

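Over the alternatives, 292 of 309 fold changes of single enzymes kept their direction and side of the threshold. The number of enzymes called in Ep1 was 2 with voom on recovered fragments, by the addition of Ppox, and 1 to 2 when 1 library was left out, with Alad added without Ctrl replicate 3. In Ep2 it was 3 to 5 when 1 library was left out. Between the doses it was 3 to 5, the 5 arising without Ep2 replicate 1. When 1 library was left out, the Cpox difference lay between -0.0393 and 0.0053 in Ep1, with the opposite sign without Ctrl replicate 1, and between -0.2614 and 0.0153 between the doses, with the opposite sign without Ep2 replicate 2. The opposite sign was also seen for Ppox in Ep2 under the length and GC correction (0.0024). The causes were not tested. With the replicate block the counts were 1, 4 and 3, as without it, and no call on an enzyme changed. Same-numbered libraries showed no clear shared deviation. Their deviations from the group means correlated at -0.0565 to 0.0744, against -0.108 to 0.153 for libraries of other numbers. Such correlations cannot tell whether same-numbered libraries were handled together.

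Genes called in Ep1 numbered 1324 in all and 191 to 1034 when 1 library was left out, 396 without a filter, 2162 with only the groups compared, 1993 with voom. Of the genes called between the doses, 57.2% were lower in Ep2, against 44.5% after median centring and 47.2% with voom. Alas1 is measured here as RNA, and Uros, with 126 to 193 fragments per library, had the fewest fragments behind its values.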
